A study of Homo sapiens with 12 samples.

Results

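The genes described here are 50 that encode collagen chains, the enzymes that modify and cross-link collagen, and proteins of the stromal matrix. They were chosen by gene symbol, with earlier results of these data known. The deposited count table holds 29094 RefSeq accession rows, and each of the 50 genes has a row in it. RNA was sequenced from 12 libraries of MCF10AT, human mammary epithelial cells that express activated HRAS. EP300 KD1 and EP300 KD2 are lines that each carry 1 lentiviral short hairpin RNA (shRNA) against EP300, and NS1 and NS2 are non-silencing controls, with 3 libraries in each of the 4 groups. All groups share the HRAS transgene, the lentiviral vector, puromycin selection and a medium with horse serum, EGF, insulin, cholera toxin and hydrocortisone. EP300 KD1 was compared with NS1 and EP300 KD2 with NS2. The labels do not name the control of each hairpin, and the match by number was assumed. With 1 line for each hairpin, the loss of EP300 and other effects of a hairpin cannot be told apart within a set.

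Collagens are trimers of chains wound into a triple helix. Fibrillar collagens form the cables of connective tissue, collagen IV forms the network of basement membranes, and collagen VI forms beaded microfibrils. In the endoplasmic reticulum, prolyl and lysyl hydroxylases modify the chains, and outside the cell lysyl oxidases prepare them for covalent cross-links. Epithelial cells make basement membrane collagens, whereas most fibrillar collagen in the mammary gland comes from fibroblasts. EP300 encodes a histone acetyltransferase that serves as a transcriptional coactivator.

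Library totals were 31396653 to 45606950 counts. Levels are CPM, counts scaled to library size with TMM factors. Changes are log2 fold changes of the EP300 hairpin line over its control with their standard error (SE), and a gene counts as called when its edgeR quasi-likelihood adjusted p is under 0.05. Within EP300 KD1, replicates 1 and 3 differed by a chi-square per degree of freedom of 1.86, against 4.32 and 4.54 for each of them with replicate 2. The other replicate pairs lay between 2.36 and 3.96. EP300 was at 108, 106 and 108 CPM in EP300 KD1 libraries, against 171, 177 and 167 CPM in NS1 libraries. With the other hairpin it was at 95.1, 99.9 and 92.3 CPM in EP300 KD2, against 165, 180 and 177 CPM in NS2. The level left was 62.4% ± 0.514 of the NS1 mean in EP300 KD1 and 55.0% ± 2.22 of the NS2 mean in EP300 KD2 (SD, n = 3 each), and both decreases passed by edgeR's quasi-likelihood test (adjusted p = 2.6e-12 and 1.1e-13).

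Counts were high enough to test 35 of the 50 genes. Of the other 15, COL1A2, COL3A1, COL5A1, COL6A2 and LUM are listed at 0 in every library, and 10 had a total of 1 to 83 counts over all 12 libraries. COL5A3, with 83 counts in total, was the highest of these. Genes that every cell uses, such as PSMB3 and RPL18, are also listed at 0 in this table, so a 0 here is not shown to mean that the gene is silent. In 30 of the 35 genes tested, every group had all 3 libraries over 0.292 CPM. COL28A1, COL9A2, COL21A1, LOXL4 and POSTN fell short of that level in at least 1 group.

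With the first hairpin, 27 of the 35 genes tested rose and 4 fell, whereas over all 13424 rows tested 32.6% rose and 32.3% fell. With a filter of at least 1 CPM in at least 3 libraries, which leaves fewer of the genes, 2 fell. At least 2-fold rises were called for 15 of them, or 42.9%, against 5.85% of all rows, and at least 2-fold falls for COL12A1 and COL21A1, against 4.34% of all rows. COL21A1 was tested through its control libraries, none of its hairpin libraries being over the filter's level, so nothing is read from that count. In 27 genes every EP300 KD1 library lay above every NS1 library and in 5 every one lay below, against 33.9% and 33.8% of all rows. Their median log2 fold change was 0.77, against -0.01 for all rows. The second hairpin gave 15 genes that rose and 14 that fell, against 27.9% and 29.9% of all rows, with a median of 0.10 against -0.00. At least 2-fold rises were called for 6 genes, or 17.1%, against 2.95% of all rows, and falls of that size for COL21A1 and LOXL4, against 5.13% of all rows. Both genes had all 3 libraries over the filter's level in NS1 alone, so this count is not read either. Every EP300 KD2 library lay above every NS2 library in 17 genes and below in 15, against 30.9% and 32.6% of all rows. Both hairpins raised 14 genes, 40.0% of those tested, against 15.3% of all rows, and lowered 3, or 8.57%, against 17.3%. Those 3 include COL21A1. The counts above of falls, and of genes with every hairpin library below its controls, also include COL21A1, LOXL4 or both. None of these counts of falls is therefore read. As the 50 genes were chosen with earlier results of these data known, their shares beside all rows are a description and not a test. In 9 genes, 25.7% of those tested against 11.2% of all rows, the hairpins moved the level in opposite directions, each time higher in EP300 KD1 and lower in EP300 KD2. In bulk RNA, a change in the number of cells that express a gene and a change in RNA per cell cannot be told apart.

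**Figure D1:**
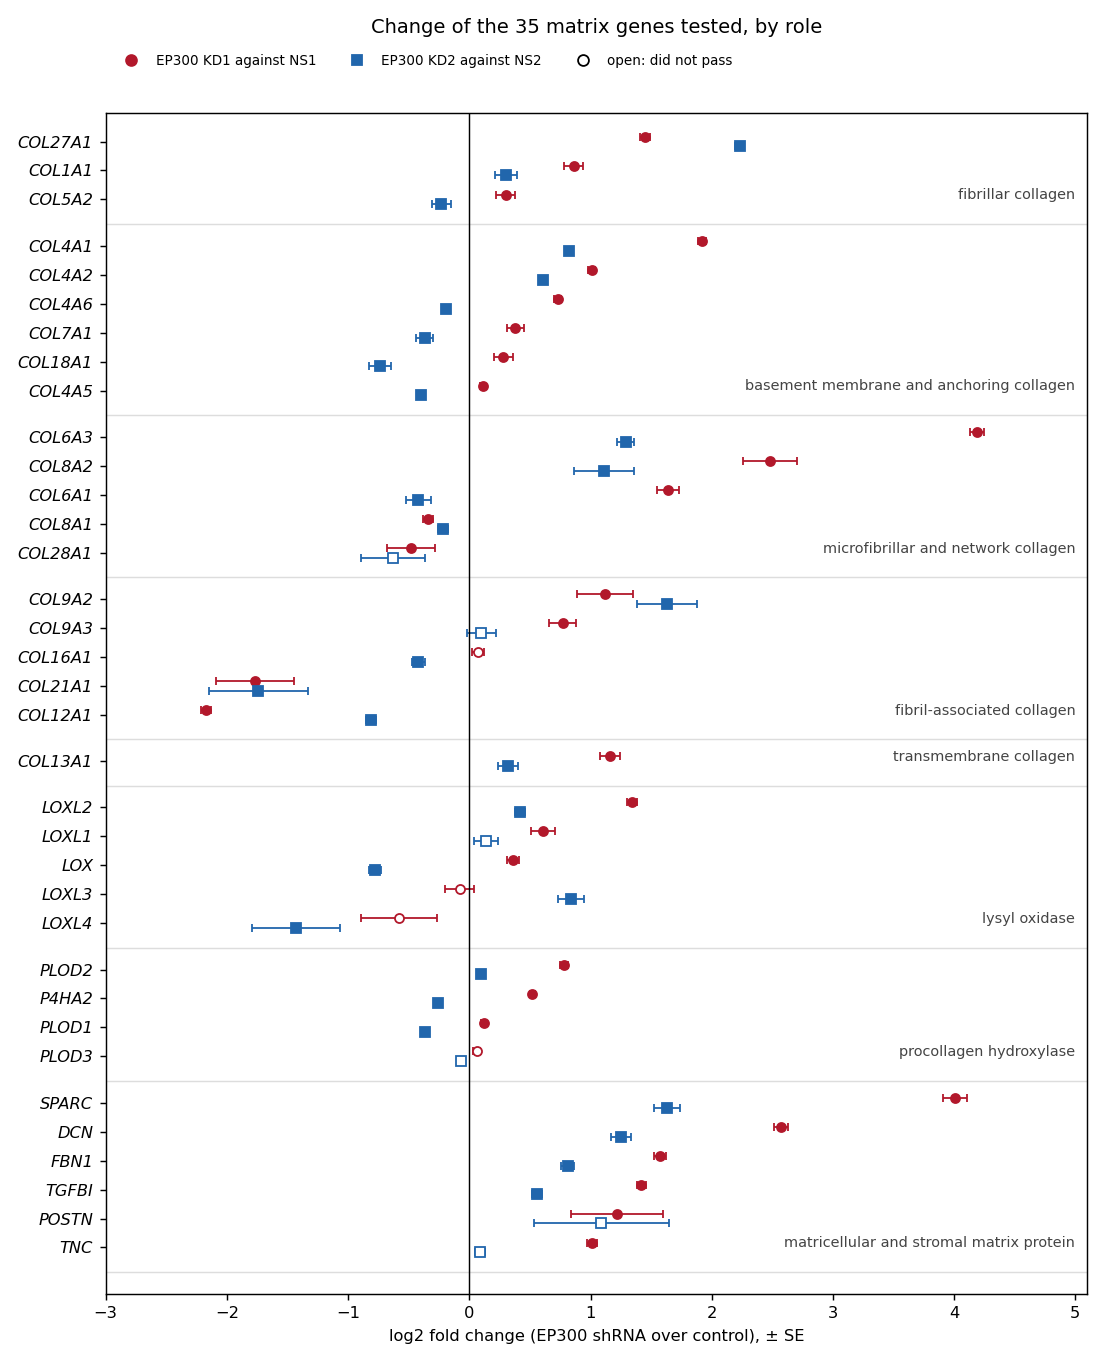
Log2 fold change of each of the 35 genes tested, EP300 KD1 against NS1 (red circles) and EP300 KD2 against NS2 (blue squares), with bars of 1 SE and open symbols for changes that did not pass. Most red circles lie right of 0, whereas the blue squares lie on both sides, and COL12A1, COL21A1 and COL8A1 lie left of 0 as filled symbols with both hairpins. COL21A1 passed the filter through its controls.

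The difference between the hairpins was tested for each gene as the change in the second set minus the change in the first. It was negative for 26 of the 35 genes and positive for 3, against 29.2% and 21.6% of all rows, and its median was -0.68 against -0.03. A negative difference of at least 2-fold was called for 8 genes, or 22.9%, against 3.91% of all rows, and a positive one for COL12A1, or 2.86%, against 1.80%. Of the 14 genes that both hairpins raised, 12 had the larger rise with the first hairpin by that test, COL27A1 had the larger rise with the second, and the difference for COL9A2 did not pass. The controls themselves differed: NS2 was higher than NS1 for 9 of the 35 genes and lower for 8, against 14.2% and 13.4% of all rows. Without replicate 1 of NS2, 5 were lower. None of those differences reached 2-fold, which 0.104% of all rows did as a rise and 1.19% as a fall. The NS2 libraries lay above all NS1 libraries in 10 genes and below in 9, against 20.3% and 20.0% of all rows.

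The genes with the largest rises, COL6A3 and SPARC, also differed most between the hairpins, so the sequence around their starts is shown. It stands beside that of COL4A2, whose start lies 127 bases from that of COL4A1 on the opposite strand, and that of LOX, which the hairpins moved in opposite directions. Each is the RefSeq promoter window of GRCh38.p14, from 250 bases before the start to the first 50 bases of the transcript, read 5′ to 3′ on the gene's strand. Windows were matched for 37 of the 50 genes. Capitals mark matches on either strand to the usual TATA box, spelled TATAAA, to the motif that nuclear factor Y reads, spelled CCAAT, to the GC box of Sp1-type factors, spelled GGGCGG, to the site of AP-1, spelled TGANTCA, or to the core of the hypoxia response element, spelled ACGTG and also part of the E-box.
COL4A2 promoter, chr13:110307034-110307333, plus strand: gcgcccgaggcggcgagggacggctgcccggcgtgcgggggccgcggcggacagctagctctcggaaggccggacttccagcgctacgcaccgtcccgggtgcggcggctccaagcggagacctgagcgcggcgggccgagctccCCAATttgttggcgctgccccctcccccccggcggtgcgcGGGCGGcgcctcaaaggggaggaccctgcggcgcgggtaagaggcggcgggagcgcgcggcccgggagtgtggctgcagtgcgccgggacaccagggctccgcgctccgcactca
SPARC promoter, chr5:151686866-151687165, minus strand: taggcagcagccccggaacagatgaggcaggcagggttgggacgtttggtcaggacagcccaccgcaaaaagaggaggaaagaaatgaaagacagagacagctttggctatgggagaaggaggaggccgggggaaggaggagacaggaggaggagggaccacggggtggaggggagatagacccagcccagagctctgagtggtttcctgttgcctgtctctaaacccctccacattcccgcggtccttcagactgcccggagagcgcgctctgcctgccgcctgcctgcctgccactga
COL6A3 promoter, chr2:237414115-237414414, minus strand: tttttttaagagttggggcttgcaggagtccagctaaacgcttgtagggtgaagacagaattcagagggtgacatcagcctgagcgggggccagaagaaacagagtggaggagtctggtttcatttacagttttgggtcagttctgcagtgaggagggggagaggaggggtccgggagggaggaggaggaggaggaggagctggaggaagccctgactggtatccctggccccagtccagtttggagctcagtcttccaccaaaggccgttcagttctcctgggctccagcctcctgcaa
LOX promoter, chr5:122078210-122078509, minus strand: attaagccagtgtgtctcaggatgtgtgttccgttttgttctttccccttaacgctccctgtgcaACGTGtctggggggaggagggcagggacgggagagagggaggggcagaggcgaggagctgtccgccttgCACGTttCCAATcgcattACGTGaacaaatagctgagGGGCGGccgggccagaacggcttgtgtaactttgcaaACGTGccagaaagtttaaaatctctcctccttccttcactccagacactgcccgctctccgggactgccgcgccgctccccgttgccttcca
The COL4A2 window, which also contains the COL4A1 start, holds 1 CCAAT box and 1 GC box. These letters do not occur in the SPARC or the COL6A3 window. The LOX window holds 4 ACGTG matches, 1 CCAAT box and 1 GC box, none of which overlap. GGGCGG occurs in 23 of the 37 windows, or 62.2%, against 45% of all 35116 windows of this length. CCAAT occurs in 27% against 34.6%, TATAAA in 10.8% against 11.5%, ACGTG in 16.2% against 21.4% and TGANTCA in 2.7% against 7.71%. These are letter matches and were not tested as sites. The 37 windows were picked as 1 per gene, whereas the 35116 were taken without such a choice, so the shares are not like for like.

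Among the fibrillar collagens, 3 of 9 genes were tested, and the first hairpin raised all 3, against 32.6% of all rows. This class and those below are small, and their counts were not tested as classes. COL27A1 (NM_032888, chr9:114154098-114312511), a fibrillar collagen known from cartilage, was at 40.5, 42.3 and 38.5 CPM in EP300 KD1, against 14.6, 15.2 and 14.8 CPM in NS1. In the second set it was at 62.6, 61.5 and 60.5 CPM in EP300 KD2, against 12.5, 12.9 and 13.8 CPM in NS2. Every library of both hairpin lines lay above every control library. Its log2 fold change was 1.45 ± 0.04 with the first hairpin and 2.23 ± 0.04 with the second (SE, adjusted p = 1.0e-15 and 2.1e-18). The second rise was the larger by 0.79 ± 0.06 (adjusted p = 7.1e-09).

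COL1A1 (NM_000088, chr17:50184101-50201631) encodes the main chain of collagen I, the collagen of bone, skin and tendon. It was at 14.4, 18.6 and 15.8 CPM in EP300 KD1, against 8.84, 8.45 and 9.62 CPM in NS1, a log2 fold change of 0.86 ± 0.08 (adjusted p = 2.8e-08). Values in the second set were 10.2, 10.3 and 9.69 CPM in EP300 KD2, against 7.90, 8.49 and 8.18 CPM in NS2 (0.30 ± 0.09, adjusted p = 0.0064). The groups did not overlap in either set. COL5A2, a chain of the collagen V that starts fibrils, averaged 10.1 ± 0.218 CPM in EP300 KD1 and 8.26 ± 0.832 CPM in NS1 (SD, n = 3 each; log2 fold change 0.30, adjusted p = 0.0025). It averaged 7.24 ± 0.453 CPM in EP300 KD2 and 8.48 ± 0.218 CPM in NS2 (-0.23, adjusted p = 0.022). That decrease no longer passed with library totals alone as the scaling (-0.16, adjusted p = 0.10) or without replicate 1 of EP300 KD2 (-0.19, adjusted p = 0.098). The partner chains COL1A2 and COL5A1 are among the genes listed at 0.

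Among the basement membrane and anchoring collagens, 6 of 9 genes were tested. All 6 rose with the first hairpin, whereas with the second COL4A1 and COL4A2 rose and COL4A5, COL4A6, COL7A1 and COL18A1 fell. Of all rows, 32.6% rose with the first, and 27.9% rose and 29.9% fell with the second. COL4A1 (NM_001845, chr13:110148963-110307157) and COL4A2 (NM_001846, chr13:110307284-110513209) encode the chains of the collagen IV found in all basement membranes, and are the head-to-head pair whose shared start region is printed above. COL4A1 was at 350, 338 and 341 CPM in EP300 KD1, against 93.8, 90.4 and 88.7 CPM in NS1. It was at 221, 224 and 223 CPM in EP300 KD2, against 122, 128 and 129 CPM in NS2. COL4A1 was therefore higher in every library of both hairpin lines, by 1.92 ± 0.03 with the first hairpin and 0.82 ± 0.03 with the second on the log2 scale (adjusted p = 2.5e-20 and 6.2e-15). The controls also differed, with NS2 above NS1 by 0.47 (adjusted p = 1.2e-09).

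COL4A2 was at 562, 587 and 573 CPM in EP300 KD1, against 294, 286 and 273 CPM in NS1. In the second set it was at 457, 465 and 454 CPM in EP300 KD2, against 292, 309 and 300 CPM in NS2. These rises, 1.01 ± 0.03 and 0.61 ± 0.03 (adjusted p = 2.7e-16 and 7.4e-13), were smaller than those of COL4A1. Read counts of COL4A1 per count of COL4A2, which do not depend on the scaling between libraries, averaged 0.598 ± 0.0233 in EP300 KD1 and 0.320 ± 0.00479 in NS1 (SD, n = 3 each). They averaged 0.486 ± 0.00480 in EP300 KD2 and 0.420 ± 0.00781 in NS2. The ratio was higher in every hairpin library than in its controls. The pairs compared in this way were chosen after their counts were seen, and the ratios carry no test.

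The family has further head-to-head pairs. COL4A3 and COL4A4, with starts 419 bases apart on chr2, were too low to test. The pair COL4A5 and COL4A6 has starts 380 bases apart on chrX and encodes the chains of an epithelial collagen IV. COL4A6 was at 199, 194 and 195 CPM in EP300 KD1, against 121, 122 and 112 CPM in NS1 (0.73 ± 0.03, adjusted p = 1.1e-13). It was at 120, 117 and 120 CPM in EP300 KD2, against 132, 135 and 140 CPM in NS2 (-0.19 ± 0.03, adjusted p = 3.1e-05). COL4A5 was at 232, 228 and 224 CPM in EP300 KD1, against 210, 217 and 208 CPM in NS1 (0.11 ± 0.02, adjusted p = 6.8e-04). In both genes the first hairpin line lay above its control and the second below. With the second hairpin COL4A5 was at 147, 146 and 147 CPM in EP300 KD2, against 192, 190 and 196 CPM in NS2 (-0.40 ± 0.02, adjusted p = 6.9e-11). Although the direction differed, COL4A5 counts per COL4A6 count were lower with both hairpins, at 1.16 ± 0.0158 in EP300 KD1 against 1.79 ± 0.0588 in NS1, and at 1.23 ± 0.0137 in EP300 KD2 against 1.42 ± 0.0251 in NS2.

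COL7A1, the collagen of the fibrils that anchor epithelium to the dermis or stroma, averaged 129 ± 13.5 CPM in EP300 KD1 and 99.6 ± 5.89 CPM in NS1 (SD, n = 3 each), and 74.2 ± 7.03 CPM in EP300 KD2 and 96.0 ± 5.90 CPM in NS2. Its log2 fold changes were 0.38 and -0.37 (adjusted p = 6.0e-05 and 1.8e-04), close in size and opposite in sign. COL18A1, the source of the endostatin fragment, averaged 16.8 ± 2.03 CPM in EP300 KD1 and 13.8 ± 1.20 CPM in NS1, and 7.14 ± 0.550 CPM in EP300 KD2 and 11.9 ± 0.769 CPM in NS2. It fell with the second hairpin by 0.74 on the log2 scale (adjusted p = 1.4e-06). Its rise with the first (0.28, adjusted p = 0.0069) did not pass without replicate 2 of EP300 KD1 (0.18, adjusted p = 0.062). Exons of SLC19A1 on the opposite strand cover 16.4% of its exon bases.

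**Figure D2:**
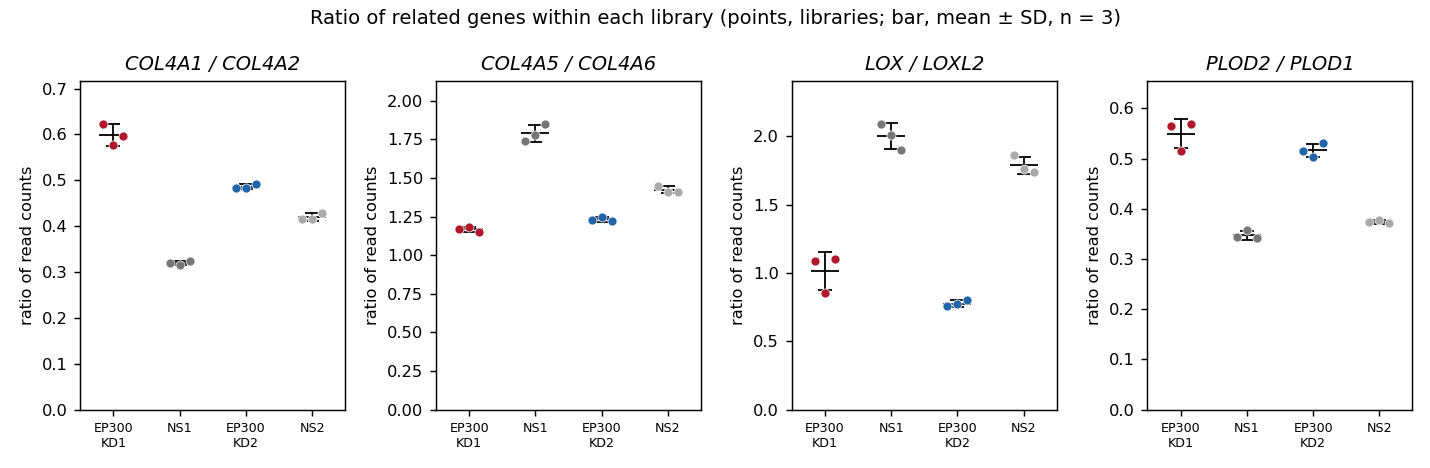
Ratio of the read counts of related genes within each library (points), with the mean and SD of 3 libraries as bars, for EP300 KD1, NS1, EP300 KD2 and NS2. COL4A1 per COL4A2 and PLOD2 per PLOD1 lie higher in both hairpin lines than in their controls, whereas COL4A5 per COL4A6 and LOX per LOXL2 lie lower.

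Microfibrillar and network collagens held the largest rise. COL6A3 (NM_057167, chr2:237324018-237414164), which encodes the longest chain of collagen VI, was at 125, 134 and 129 CPM in EP300 KD1, against 7.88, 6.49 and 6.95 CPM in NS1. It was at 23.6, 20.5 and 23.5 CPM in EP300 KD2, against 9.61, 9.09 and 8.85 CPM in NS2. The hairpin lines did not overlap their controls, nor did EP300 KD1 overlap EP300 KD2. The rise was 18.2-fold with the first hairpin (log2 fold change 4.19 ± 0.06, adjusted p = 9.3e-21) and 2.45-fold with the second (1.29 ± 0.07, adjusted p = 4.5e-12). Of the 35 genes it had the largest difference between the hairpins, at -2.89 ± 0.10 (adjusted p = 4.8e-14).

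COL6A1 (NM_001848, chr21:45981770-46005048), the shorter chain of the same trimer, was at 27.3, 34.6 and 28.0 CPM in EP300 KD1, against 9.43, 9.65 and 9.82 CPM in NS1. It was at 7.97, 7.28 and 5.96 CPM in EP300 KD2, against 9.57, 9.39 and 9.59 CPM in NS2. So COL6A1 rose with the first hairpin (1.64 ± 0.09, adjusted p = 6.1e-12) and fell with the second (-0.42 ± 0.10, adjusted p = 0.0016), while COL6A3 rose with both. COL6A2, whose chain completes the trimer, is listed at 0.

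COL8A2 (NM_005202, chr1:36095239-36125222), a chain of the short network collagen VIII, was at 2.53, 3.27 and 2.18 CPM in EP300 KD1, against 0.671, 0.400 and 0.375 CPM in NS1. It was at 1.12, 0.989 and 1.17 CPM in EP300 KD2, against 0.411, 0.451 and 0.645 CPM in NS2. At this low level the hairpin libraries still lay above every control library (2.48 ± 0.22 and 1.11 ± 0.25, adjusted p = 9.5e-09 and 7.9e-04). The other collagen VIII chain, COL8A1, fell with both: it averaged 60.3 ± 2.32 CPM in EP300 KD1 and 76.7 ± 2.88 CPM in NS1, and 61.4 ± 1.10 CPM in EP300 KD2 and 71.3 ± 2.92 CPM in NS2 (-0.34 and -0.22, adjusted p = 1.4e-07 and 6.0e-05). COL28A1 averaged 0.828 CPM in EP300 KD1 and 1.16 CPM in NS1 (-0.48, adjusted p = 0.047). This call at the edge of the threshold was lost in many alternatives. They include leaving out replicate 1 of NS1 (-0.36, adjusted p = 0.18), DESeq2 (-0.49, adjusted p = 0.17) and limma-voom (-0.45, adjusted p = 0.067). COL28A1 was 1.00 lower in NS2 than in NS1 on the log2 scale.

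**Figure D3:**
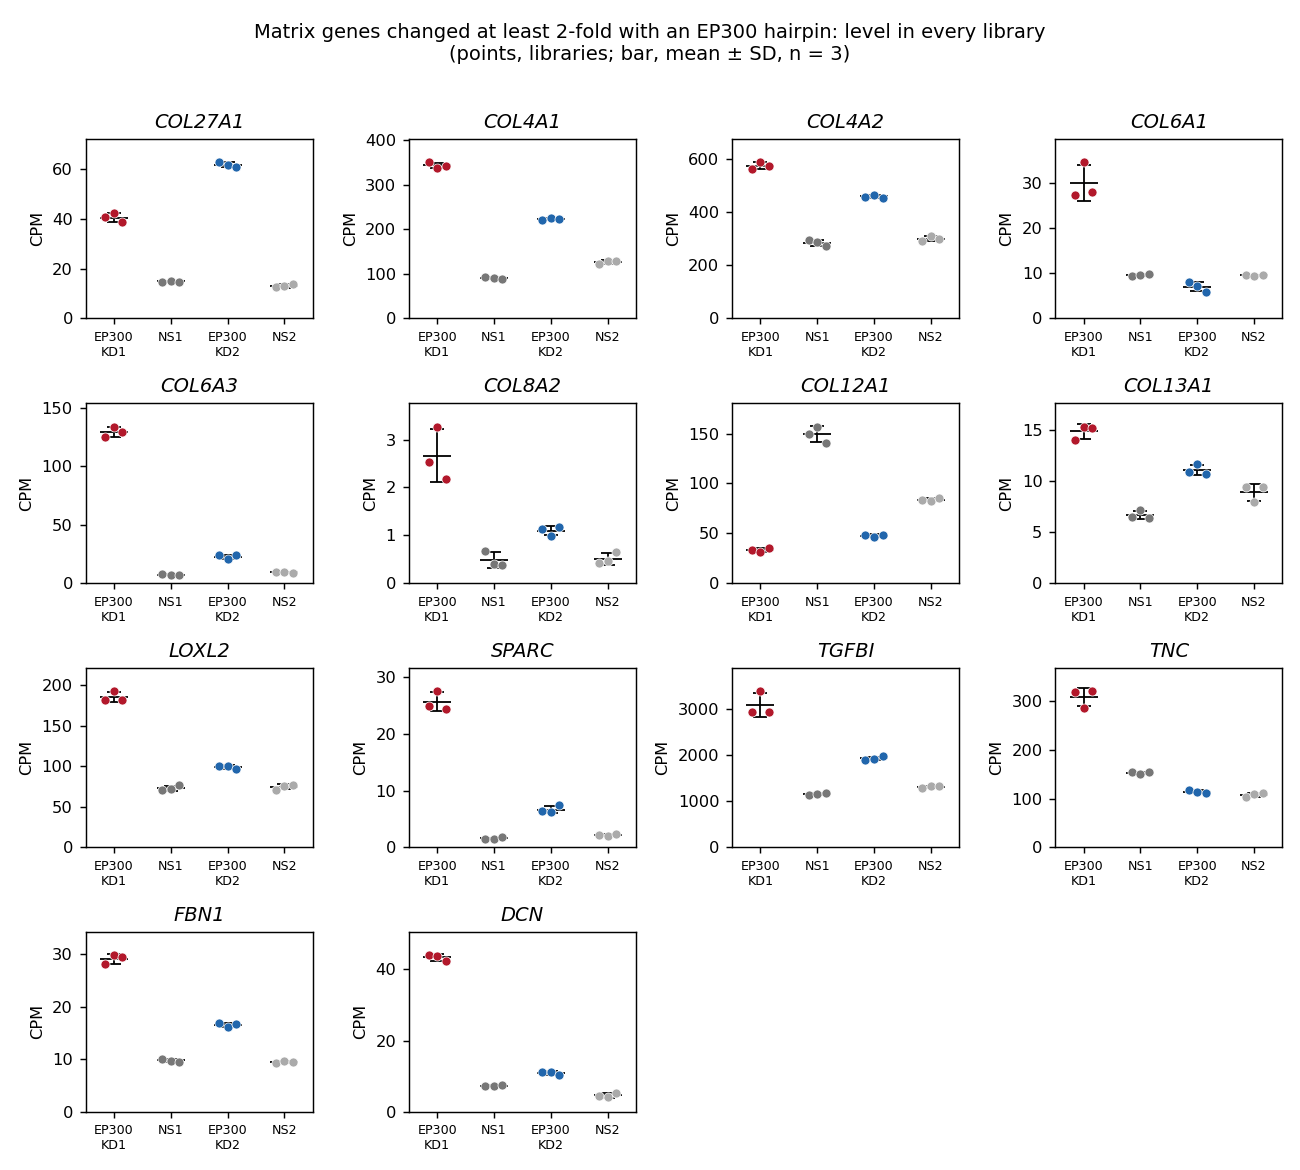
TMM-scaled CPM in each library (points) of the 14 genes called with at least a 2-fold change in either comparison and a group mean of at least 1 CPM, for EP300 KD1, NS1, EP300 KD2 and NS2, with the mean and SD of 3 libraries as bars. COL6A3 and SPARC lie far higher in EP300 KD1 than in the other groups, COL27A1 lies highest in EP300 KD2, and COL12A1 lies lowest in EP300 KD1.

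The collagens that attach to fibrils were the class whose summed level was lower in both hairpin lines. COL12A1 (NM_004370, chr6:75084326-75206053), which encodes the chain of collagen XII on the surface of collagen I fibrils, was the largest contributor in NS1. It was at 33.3, 31.2 and 34.7 CPM in EP300 KD1, against 150, 157 and 141 CPM in NS1. It was at 48.3, 46.0 and 48.4 CPM in EP300 KD2, against 83.4, 81.8 and 85.1 CPM in NS2. All 6 hairpin libraries lay below all 6 control libraries (-2.17 ± 0.04 and -0.81 ± 0.04, adjusted p = 1.7e-18 and 4.9e-12). The controls were also apart, NS2 being lower than NS1 by 0.84 on the log2 scale (adjusted p = 2.4e-11), a difference about the size of the second fall.

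COL21A1, which passed the filter through its controls, was called lower with both, at 0.179 ± 0.0300 CPM in EP300 KD1 and 0.615 ± 0.134 CPM in NS1, and at 0.0956 ± 0.0421 CPM in EP300 KD2 and 0.338 ± 0.0748 CPM in NS2 (-1.77 and -1.74, adjusted p = 8.5e-05 and 0.0013). As its hairpin libraries were under the filter's level, nothing is read from these calls. COL9A2, a cartilage collagen IX chain, moved the other way at a similarly low level, at 0.817 ± 0.0929 CPM in EP300 KD1 and 0.373 ± 0.0652 CPM in NS1, and at 0.873 ± 0.102 CPM in EP300 KD2 and 0.278 ± 0.0665 CPM in NS2 (1.12 and 1.63, adjusted p = 3.1e-04 and 1.3e-05). Its partner COL9A3 rose with the first hairpin (0.77, adjusted p = 6.6e-06), and with the second its log2 fold change was 0.10 (adjusted p = 0.53). COL16A1 averaged 127 ± 11.2 CPM in EP300 KD1 and 121 ± 3.57 CPM in NS1 (0.07, adjusted p = 0.20), and fell to 97.3 ± 3.12 CPM in EP300 KD2, against 131 ± 3.78 CPM in NS2 (-0.42, adjusted p = 2.1e-07). Of the transmembrane collagens, COL13A1 (NM_001130103, chr10:69801906-69959144) was tested. It was at 14.0, 15.3 and 15.2 CPM in EP300 KD1, against 6.48, 7.10 and 6.36 CPM in NS1, and at 10.9, 11.6 and 10.7 CPM in EP300 KD2, against 9.38, 7.88 and 9.34 CPM in NS2. The groups did not overlap in either set (1.16 ± 0.08 and 0.32 ± 0.08, adjusted p = 1.4e-10 and 0.0015).

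Summed over all 33 collagen chain genes, the level was 1958 ± 40.7 CPM in EP300 KD1 and 1227 ± 40.0 CPM in NS1, a ratio of 1.60, and 1360 ± 11.8 CPM in EP300 KD2 and 1211 ± 24.9 CPM in NS2, a ratio of 1.12 (SD, n = 3 each). Basement membrane and anchoring chains made up most of it, with sums of 1487 ± 21.6 CPM in EP300 KD1 and 818 ± 25.6 CPM in NS1. The fibrillar sum was 67.2 ± 3.80 CPM in EP300 KD1 and 32.3 ± 0.449 CPM in NS1. The fibrillar sum contains COL1A2, COL3A1 and COL5A1 at their listed 0, and may therefore be too low. With the second hairpin their sum was 79.0 ± 1.37 CPM in EP300 KD2 and 29.9 ± 0.771 CPM in NS2, and COL27A1 alone averaged 61.5 ± 1.07 CPM in EP300 KD2 and 13.1 ± 0.625 CPM in NS2. The fibril-associated sum was 166 ± 9.59 CPM in EP300 KD1, against 275 ± 11.6 CPM in NS1, and 149 ± 3.38 CPM in EP300 KD2, against 218 ± 5.14 CPM in NS2. These sums carry no test of their own.

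**Figure D4:**
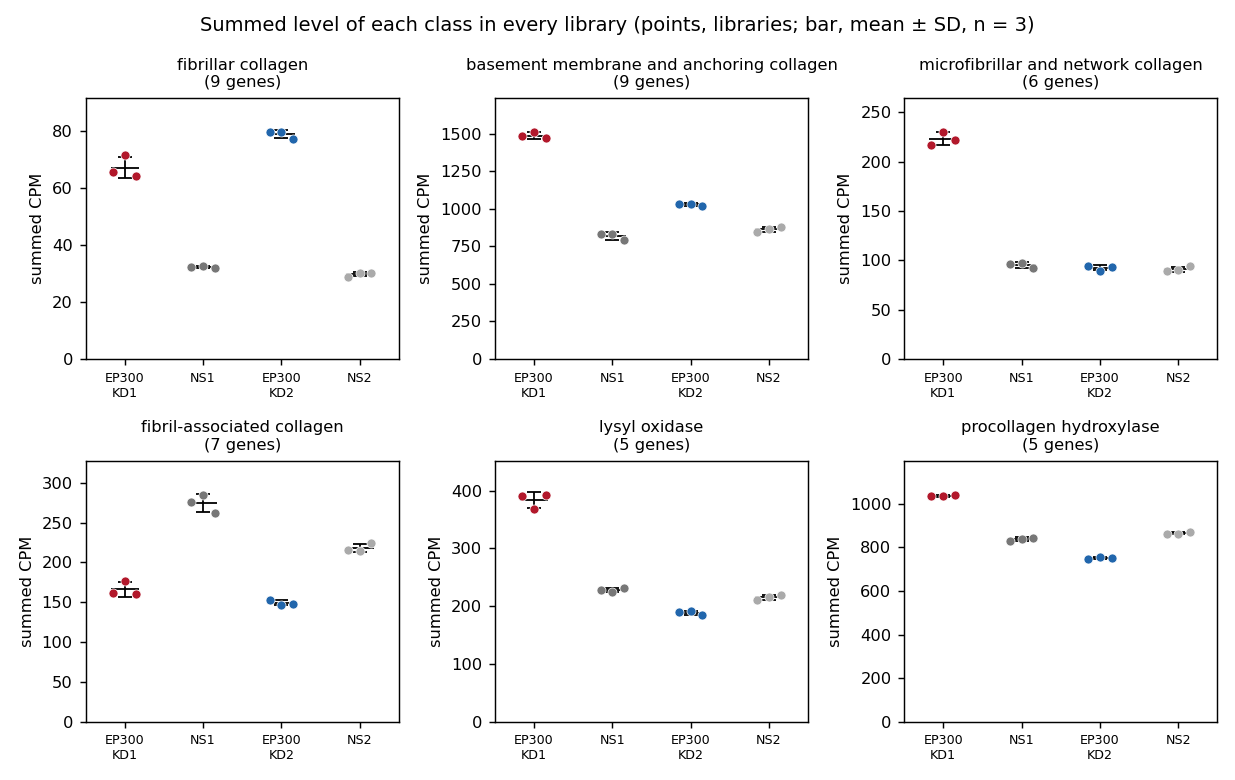
Summed TMM-scaled CPM of each class in every library (points), for EP300 KD1, NS1, EP300 KD2 and NS2, with the mean and SD of 3 libraries as bars. The fibrillar and basement membrane sums lie above the controls in both hairpin lines and the fibril-associated sum lies below, whereas the lysyl oxidase and hydroxylase sums lie above NS1 in EP300 KD1 and below NS2 in EP300 KD2.

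Among the lysyl oxidases, all 5 genes were tested. With the first hairpin 3 rose and 0 fell, against 32.6% and 32.3% of all rows. With the second 2 rose and 2 fell, against 27.9% and 29.9%, and the count of falls, which includes LOXL4, is not read. LOX (NM_002317, chr5:122063195-122078259), the founding enzyme of the family, was at 198, 165 and 200 CPM in EP300 KD1, against 148, 144 and 146 CPM in NS1 (0.36 ± 0.05, adjusted p = 2.5e-06). It was at 76.7, 78.2 and 77.5 CPM in EP300 KD2, against 132, 132 and 135 CPM in NS2 (-0.78 ± 0.05, adjusted p = 1.9e-10). Replicate 2 of EP300 KD1 was the lowest of its group and still lay above NS1. LOXL2 (NM_002318, chr8:23296897-23404120), which cross-links basement membrane collagen IV, was at 182, 193 and 182 CPM in EP300 KD1, against 70.9, 71.7 and 76.6 CPM in NS1 (1.34 ± 0.04, adjusted p = 1.4e-16). It was at 101, 101 and 96.8 CPM in EP300 KD2, against 71.2, 75.2 and 77.5 CPM in NS2 (0.42 ± 0.04, adjusted p = 1.3e-08). The hairpin lines were higher in every library. LOX counts per LOXL2 count averaged 1.01 ± 0.137 in EP300 KD1 and 2.00 ± 0.0965 in NS1, and 0.777 ± 0.0227 in EP300 KD2 and 1.78 ± 0.0656 in NS2.

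The other lysyl oxidases were lower in level. LOXL1, which acts on elastin, averaged 6.42 ± 0.117 CPM in EP300 KD1 and 4.21 ± 0.596 CPM in NS1 (0.61, adjusted p = 2.4e-05). With the second hairpin its log2 fold change was 0.14 (adjusted p = 0.27). LOXL3 moved with the second hairpin, at 6.89 ± 0.268 CPM in EP300 KD2 and 3.85 ± 0.719 CPM in NS2 (0.84, adjusted p = 2.3e-06), while its log2 fold change with the first was -0.08 (adjusted p = 0.55). The difference between the hairpins passed for LOXL3 (0.92 ± 0.16, adjusted p = 8.5e-05). Exons of HTRA2 and DOK1, both on the opposite strand, cover 14.3% and 4.95% of the LOXL3 exon bases. LOXL4 fell with the second hairpin, to 0.153 ± 0.0355 CPM in EP300 KD2, against 0.420 ± 0.134 CPM in NS2 (-1.43, adjusted p = 0.0021), and it too was tested through the controls. Nothing is read from that call either.

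Of the procollagen hydroxylases 4 of 5 genes were tested, and 3 rose with the first hairpin, whereas 1 rose and 2 fell with the second. The shares of all rows were 32.6% for rises with the first, and 27.9% for rises and 29.9% for falls with the second. PLOD2, the lysyl hydroxylase of the collagen telopeptides, was at 245, 229 and 250 CPM in EP300 KD1, against 136, 144 and 140 CPM in NS1 (0.78 ± 0.03, adjusted p = 6.1e-14). It was at 161, 160 and 168 CPM in EP300 KD2, against 152 CPM in each NS2 library (0.10, adjusted p = 0.012). That smaller rise no longer passed without replicate 3 of EP300 KD2 (0.08, adjusted p = 0.057). PLOD1, the lysyl hydroxylase of the helix, averaged 439 ± 4.45 CPM in EP300 KD1 and 404 ± 7.74 CPM in NS1 (0.12, adjusted p = 6.5e-05), and 315 ± 3.03 CPM in EP300 KD2 and 407 ± 3.38 CPM in NS2 (-0.37, adjusted p = 2.9e-11). P4HA2, a catalytic subunit of prolyl 4-hydroxylase, averaged 189 ± 4.63 CPM in EP300 KD1 and 132 ± 1.64 CPM in NS1 (0.52, adjusted p = 9.2e-13), and 123 ± 1.24 CPM in EP300 KD2 and 147 ± 1.76 CPM in NS2 (-0.26, adjusted p = 4.4e-08). PLOD1 and P4HA2 thus split between the hairpins, as LOX did. PLOD2 counts per PLOD1 count averaged 0.550 ± 0.0294 in EP300 KD1 and 0.347 ± 0.00877 in NS1, and 0.516 ± 0.0136 in EP300 KD2 and 0.373 ± 0.00306 in NS2. PLOD3 gave log2 fold changes of 0.06 and -0.07 (adjusted p = 0.070 and 0.051), which lay near the threshold. Against both controls pooled each passed (0.08 and -0.08, adjusted p = 0.014 and 0.0085), and with limma-voom the second did (-0.07, adjusted p = 0.049).

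Of 6 matricellular and stromal matrix proteins tested, 6 rose with the first hairpin and 4 with the second, against 32.6% and 27.9% of all rows. None was called lower against the control of the same number. SPARC (NM_003118, chr5:151661096-151686915), a secreted protein that binds collagen, was at 25.0, 27.6 and 24.5 CPM in EP300 KD1, against 1.55, 1.44 and 1.74 CPM in NS1. It was at 6.38, 6.15 and 7.41 CPM in EP300 KD2, against 2.15, 1.96 and 2.34 CPM in NS2. SPARC was thus at 2.34 CPM or less in the control libraries and higher in every hairpin library. Exons of CLMAT3 on the opposite strand cover 7.89% of its exon bases. The rise was 16.1-fold with the first hairpin (4.01 ± 0.10, adjusted p = 4.9e-17) and 3.09-fold with the second (1.63 ± 0.11, adjusted p = 1.1e-10).

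DCN (NM_133505, chr12:91140484-91182817) encodes decorin, a small proteoglycan that coats collagen fibrils and is a fibroblast product in most tissues. It was at 43.9, 43.8 and 42.3 CPM in EP300 KD1, against 7.21, 7.16 and 7.55 CPM in NS1. It was at 11.2, 11.2 and 10.3 CPM in EP300 KD2, against 4.46, 4.06 and 5.29 CPM in NS2. Every hairpin library lay above every control library, with log2 fold changes of 2.57 ± 0.06 and 1.25 ± 0.08 (adjusted p = 4.1e-17 and 5.6e-11). FBN1 (NM_000138, chr15:48408313-48645709), which encodes the fibrillin of elastic microfibrils, was at 28.1, 29.8 and 29.5 CPM in EP300 KD1, against 10.1, 9.74 and 9.53 CPM in NS1. It was at 16.9, 16.2 and 16.7 CPM in EP300 KD2, against 9.38, 9.60 and 9.44 CPM in NS2. The controls were close together here and both hairpin lines were higher (1.57 ± 0.05 and 0.81 ± 0.05, adjusted p = 1.5e-15 and 1.0e-10).

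TGFBI (NM_000358, chr5:136028988-136063818), a secreted integrin ligand induced by TGF-beta, was the most abundant of the 50 genes in CPM. It was at 2938, 3381 and 2930 CPM in EP300 KD1, against 1133, 1160 and 1167 CPM in NS1. It was at 1896, 1921 and 1965 CPM in EP300 KD2, against 1275, 1319 and 1323 CPM in NS2. Neither hairpin line overlapped its control (1.42 ± 0.04 and 0.56 ± 0.04, adjusted p = 2.2e-16 and 2.7e-10), and replicate 2 was the highest library of EP300 KD1. Without TGFBI, the other 49 genes summed to 3787 ± 6.80 CPM in EP300 KD1 and 2464 ± 29.2 CPM in NS1, and to 2449 ± 14.5 CPM in EP300 KD2 and 2415 ± 37.3 CPM in NS2. The second ratio was then 1.01, against 1.18 with TGFBI.

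TNC (NM_002160, chr9:115019575-115118157) encodes tenascin C, a glycoprotein of wound and tumour stroma. It was at 318, 287 and 321 CPM in EP300 KD1, against 155, 150 and 154 CPM in NS1 (1.01 ± 0.04, adjusted p = 2.7e-14). It was at 118, 113 and 112 CPM in EP300 KD2, against 103, 110 and 111 CPM in NS2 (0.09 ± 0.04, adjusted p = 0.083). The rise held in all 3 EP300 KD1 libraries. The result with the second hairpin depended on control and scaling. NS2 was lower than NS1 by 0.50 on the log2 scale (adjusted p = 3.1e-08), and against both controls pooled TNC fell by 0.17 (adjusted p = 4.5e-04). Against NS2 it was called higher with library totals alone (0.16, adjusted p = 0.0030), upper-quartile scaling (0.14, adjusted p = 0.0081) and DESeq2 (0.10, adjusted p = 0.029). POSTN, which encodes periostin, was near the lower limit, at 0.674, 0.917 and 1.34 CPM in EP300 KD1, against 0.350, 0.553 and 0.375 CPM in NS1 (1.22 ± 0.38, adjusted p = 0.0083). Without replicate 3 of EP300 KD1 that rise did not pass (0.92, adjusted p = 0.066). With the second hairpin its log2 fold change was 1.09 ± 0.56 (adjusted p = 0.10), and without replicate 3 of NS2 it was 2.46 (adjusted p = 0.0046).

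Per kilobase of the matched GENCODE transcript, TGFBI led with a group mean of 1099 CPM per kb in EP300 KD1, against 411 CPM per kb in NS1. PLOD1 came next in NS1, at 137 CPM per kb, and among chains with a matched length COL4A2 was the most abundant there at 43.8 CPM per kb. COL6A3 was at 13.0 CPM per kb in EP300 KD1 and 0.713 CPM per kb in NS1. SPARC was at 6.95 CPM per kb in EP300 KD1 and 0.426 CPM per kb in NS1. Even after the largest rises of the set, both therefore stayed below COL4A1, which was at 51.9 CPM per kb in EP300 KD1.

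Other genes of collagen assembly and of the surrounding matrix were read from lists, to be set beside the 32.6% of all rows that rose and 32.3% that fell with the first hairpin, and the 27.9% and 29.9% with the second. These lists are short and were also chosen with earlier results known, and counts near those shares say nothing particular of a list. Of the genes for collagen folding, export and propeptide removal, 18 of 24 were tested, and 11 rose and 5 fell with the first hairpin, whereas 4 rose and 7 fell with the second, with median log2 fold changes of 0.25 and -0.06. The 5 falls with the first include TLL1, tested through its controls, so that count is not read. With library totals alone as the scaling, 7 rose with the second. P3H1, a prolyl 3-hydroxylase, averaged 66.8 ± 2.21 CPM in EP300 KD1 and 27.7 ± 0.712 CPM in NS1 (1.27, adjusted p = 3.1e-16), and 43.6 ± 0.926 CPM in EP300 KD2 and 31.5 ± 0.757 CPM in NS2 (0.47, adjusted p = 1.8e-09). Its relative P3H2 fell with both (-0.86 and -1.14), as did MIA2 (-0.57 and -0.93). P4HB rose with the first hairpin (0.41) and did not pass with the second (0.01). Of the receptors that bind or take up collagen, 7 of 10 were tested, with 5 that rose with the first hairpin and 3 that rose and 1 that fell with the second, and medians of 0.55 and 0.18. MRC2, the endocytic collagen receptor, averaged 77.2 ± 5.12 CPM in EP300 KD1 and 21.9 ± 1.60 CPM in NS1, and 31.8 ± 0.992 CPM in EP300 KD2 and 15.6 ± 1.09 CPM in NS2 (1.82 and 1.03, adjusted p = 6.7e-16 and 4.9e-11). ITGA1, a collagen-binding integrin chain, and its partner ITGB1 also rose with both (0.71 and 0.35 for ITGA1, 0.36 and 0.18 for ITGB1), while ITGA10 rose with the first (0.55) and fell with the second (-0.70).

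Against the same shares of all rows (32.6% and 32.3% with the first hairpin, 27.9% and 29.9% with the second), elastic fibre genes gave 5 that rose and 2 that fell with the first hairpin, and 4 that rose and 4 that fell with the second, among 9 tested, with medians of 0.57 and 0.09. FBN2, the relative of FBN1, averaged 121 ± 5.03 CPM in EP300 KD1 and 22.3 ± 0.831 CPM in NS1, and 85.3 ± 2.63 CPM in EP300 KD2 and 22.9 ± 0.723 CPM in NS2 (2.44 and 1.90, adjusted p = 1.1e-19 and 1.1e-17). LTBP1, which tethers latent TGF-beta to microfibrils, averaged 327 ± 20.6 CPM in EP300 KD1 and 61.6 ± 1.76 CPM in NS1, and 81.6 ± 3.03 CPM in EP300 KD2 and 53.2 ± 3.42 CPM in NS2 (2.41 and 0.62, adjusted p = 7.7e-19 and 3.6e-09). LTBP2 rose with both (1.12 and 0.56), and FBLN1 fell with both (-1.95 and -1.41). Among 6 basement membrane partners of collagen IV that were tested, 2 rose and 3 fell with the first hairpin, and 1 rose and 4 fell with the second, with medians of -0.23 and -0.52. HSPG2, which encodes perlecan, averaged 192 ± 8.09 CPM in EP300 KD1 and 266 ± 13.9 CPM in NS1, and 152 ± 9.51 CPM in EP300 KD2 and 265 ± 2.22 CPM in NS2 (-0.47 and -0.80). PXDN, the peroxidase that forms sulfilimine bonds in collagen IV, rose with the first hairpin (0.71) and fell with the second (-0.23). SMOC1 (-0.49 and -0.90) and TINAGL1 (-0.58 and -0.84) fell with both. Of 11 further collagen chains COL17A1, a hemidesmosome component, was the 1 tested, and it fell to 217 ± 5.40 CPM in EP300 KD1, against 348 ± 12.6 CPM in NS1, and to 98.2 ± 0.971 CPM in EP300 KD2, against 288 ± 4.09 CPM in NS2. Proteoglycans and matricellular proteins outside the 50 gave 3 that rose and 5 that fell with the first hairpin, and 3 that rose and 4 that fell with the second, among 8 tested, with medians of -0.37 and 0.29. Without replicate 2 of NS1, 3 fell with the first. The rises with the first hairpin include CCN3, tested through EP300 KD1, and the falls with each hairpin include SPP1, tested through its controls. Those counts are therefore not read. VCAN, which encodes versican, rose with both (1.80 and 1.05) and THBS1, which encodes a thrombospondin, fell with both (-0.68 and -0.29). SPOCK1 rose with the first hairpin (1.25) and fell with the second (-0.16), whereas CCN1 fell with the first (-0.17) and rose with the second (1.03).

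**Figure D5:**
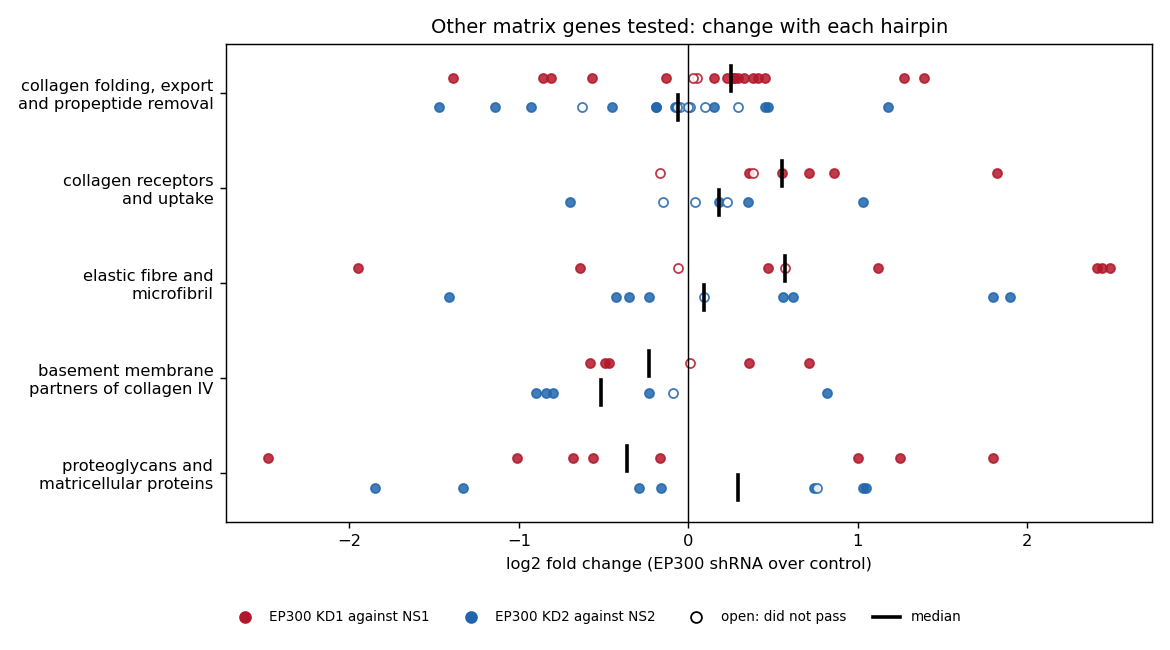
Log2 fold change of each other matrix gene tested (points) with the first hairpin (red) and the second (blue), by list, with open points for changes that did not pass and black bars for medians. The points of each of the 5 lists plotted lie on both sides of 0, and among them the receptors hold the lowest number of calls below 0. COL17A1 is not plotted.

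The labelled epithelial type was checked against markers, and all 11 epithelial markers were tested. Their summed level was 4295 to 4355 CPM in EP300 KD1, against 6352 to 6488 CPM in NS1, and 3911 to 3989 CPM in EP300 KD2, against 7128 to 7244 CPM in NS2. It was thus lower in both hairpin lines. With each hairpin 9 of the 11 genes were called lower, against 32.3% and 29.9% of all rows. Among them KRT14 was tested through its controls, and KRT19 was under the filter's level in EP300 KD2, so these counts are not read. KRT6A (0.51) and KRT8 (0.59) rose with the first hairpin, the KRT8 row with the most counts being a non-coding transcript. KRT14, a basal keratin, averaged 0.159 CPM in EP300 KD1 and 1.03 CPM in NS1, and 0.136 CPM in EP300 KD2 and 0.521 CPM in NS2. It was near the lower limit throughout, and nothing is read from its calls. Fibroblast markers summed to 70.9 to 75.1 CPM in EP300 KD1, against 50.6 to 52.4 CPM in NS1, and to 47.3 to 49.4 CPM in EP300 KD2, against 46.1 to 50.0 CPM in NS2. Of the 10 fibroblast markers, 4 were tested, and PRRX1, DPT and CFD are listed at 0 in every library. PDGFRA averaged 8.56 CPM in EP300 KD1 and 0.430 CPM in NS1, and 1.12 CPM in EP300 KD2 and 0.411 CPM in NS2. Smooth muscle markers, which are mostly SMTN, summed to 115 to 138 CPM in EP300 KD1, against 54.6 to 58.3 CPM in NS1, and to 139 to 151 CPM in EP300 KD2, against 62.5 to 64.6 CPM in NS2, with CNN1 at 0. The summed endothelial, leukocyte and cartilage markers were lower in both hairpin lines than in their controls, with CLDN5, COMP and CNMD at 0, and each of these sums is mostly 1 gene (PECAM1, CD14 and SOX9). Within the endothelial list KDR rose with the first hairpin (0.71, adjusted p = 0.010). TEK averaged 4.14 ± 0.459 CPM in EP300 KD1, against 0.246 ± 0.143 CPM in NS1, and 0.958 ± 0.139 CPM in EP300 KD2, against 0.257 ± 0.0976 CPM in NS2 (adjusted p = 2.8e-11 and 2.2e-05). TEK was tested through its hairpin libraries, both control means being under the filter's level of 0.292 CPM, so nothing is read from these calls. The part of these shifts in the changes of the matrix genes was not tested.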

How the data were processed

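RNA was sequenced from 12 MCF10AT libraries with a stranded mRNA kit, per the labels' protocols. Alignment by the authors was to hg38 with HISAT2 2.1.0, and counting was with featureCounts, per the submitters' processing notes. Whether counting used strand, how it treated multi-mapping reads, and its annotation and version are not stated in any source used here, so reads of overlapping genes could not be separated. The deposited values are whole-number counts for 29094 RefSeq accessions, without normalisation. No label says that replicates were separate cultures, and p-values then cover only the spread among these libraries, which may be technical.

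The 50 genes and the lists of other matrix genes were chosen with earlier results of these data known. Symbols came from a RefSeq table (28134 accessions, GRCh38.p14) and a GENCODE table (502 more), and 458 accessions with 0.307% of counts had none. Where a symbol had several rows, the row with the most counts was used. Low rows were removed by filterByExpr of edgeR with default settings (13424 left), scaled by TMM and fitted with edgeR 4.0.16 in R 4.3.3 by quasi-likelihood with 1 coefficient per group, and p-values were adjusted by Benjamini-Hochberg over all rows tested. SEs were derived from the test statistic. The common biological coefficient of variation was 0.030. The procedure was tested on simulated data. Every library value is given for a gene called with a log2 fold change of at least 1 in size in either comparison and a group mean of at least 1 CPM. Library values of LOX, COL1A1, COL4A5, COL4A6, PLOD2 and POSTN were added after they were seen. From each list, up to 4 genes with the smallest p are named. Alternatives were other scalings and filters, DESeq2 1.42.0, limma-voom (limma 3.58.1), other sample sets, a replicate block and leaving out each library.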

Additional observations from a re-analysis of the deposited data

Results flagged for a closer look

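The test of the difference between the hairpins (change in EP300 KD2 against NS2 minus change in EP300 KD1 against NS1, edgeR quasi-likelihood) passed for 29 of the 35 genes. Values below are that difference on the log2 scale. In the 9 genes that rose with the first hairpin and fell with the second, it was -2.06 for COL6A1, -1.14 for LOX, -1.02 for COL18A1, -0.92 for COL4A6, -0.77 for P4HA2, -0.75 for COL7A1, -0.53 for COL5A2, -0.50 for COL4A5 and -0.49 for PLOD1. In the 12 genes that rose with both and more with the first, it was -2.89 for COL6A3, -2.39 for SPARC, -1.36 for COL8A2, -1.32 for DCN, -1.10 for COL4A1, -0.92 for LOXL2, -0.86 for TGFBI, -0.84 for COL13A1, -0.76 for FBN1, -0.68 for PLOD2, -0.56 for COL1A1 and -0.40 for COL4A2. COL9A3 (-0.67), LOXL1 (-0.47) and TNC (-0.92) were called with the first hairpin alone, and COL16A1 (-0.49) was called lower with the second alone. PLOD3 (-0.13) was called with neither, and its difference no longer passed with library totals alone (-0.07). Positive differences were those of COL12A1 (1.36), whose fall was larger with the first hairpin, and of COL27A1 (0.79) and LOXL3 (0.92), whose rise was larger with the second. The difference between the hairpins includes that between NS2 and NS1, which for COL12A1 was -0.84, for DCN -0.67, for TNC -0.50 and for COL4A1 0.47.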

How the results depend on the processing

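Over the 35 genes and all comparisons, leaving out 1 library left 1623 of the values on the same side of the threshold, with 18 newly called and 39 no longer called. The other alternatives left 1354 on the same side, with 38 newly called, 18 no longer called and 2 of opposite sign. Those 2, with both controls pooled, were COL28A1 with the first hairpin (0.02) and TNC with the second (-0.17), and the cause was not tested. Leaving out each library gave 26 to 28 rises and 3 to 4 falls with the first hairpin, 14 to 16 rises and 13 to 15 falls with the second, and 3 to 4 positive and 26 negative differences between the hairpins. NS2 was higher than NS1 for 7 to 10 genes and lower for 5 to 10. The list of proteoglycans gave 3 to 5 falls with the first hairpin, a count that is not read. A filter of at least 1 CPM in at least 3 libraries left 2 falls with the first hairpin, since it tests fewer genes, and library totals alone gave 7 rises with the second hairpin in the folding list. Over all rows, the share of calls that were rises with the second hairpin was 48.2% with TMM, 61.3% with library totals alone and 58.0% with upper-quartile scaling, and for the difference between the hairpins 42.6%, against 54.8% with library totals. Same-numbered libraries did not deviate together (correlations -0.04 to 0.02). A pairing by number was therefore not seen, though these values cannot show that there was none. With the replicate block, 4381 rows rose and 4367 fell with the first hairpin, and 3760 rose and 4042 fell with the second. COL28A1, COL21A1, COL9A2, LOXL4 and POSTN were near the lowest level tested, where depth limits precision. Why 5 genes are listed at 0 was not tested.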
